A study of Mus musculus with 17 samples.

Results

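The genes described here are 9 that encode secreted chemokines and cytokines in cultured mouse neural retinal progenitor cells (mNRPCs): Ccl2, Ccl7, Cxcl1, Cxcl12, Cx3cl1, Il6, Lif, Csf1 and Il33. They were taken by symbol from the gene tables of 17 RNA-seq libraries, which list 18836 genes in all, and a gene that a library does not list was set to 0 there. The mNRPCs came from neural retinas of adult C57BL/6 mice, were grown on Matrigel in N2/B27 medium and had been propagated with bFGF and CHIR99021, so the libraries describe a selected, passaged culture and not retina. The groups were BM (basic medium), B (BM with bFGF, basic fibroblast growth factor), C (BM with CHIR99021, an inhibitor of glycogen synthase kinase 3) and BC (BM with both). By western blot, the paper reported canonical Wnt signalling as active in the B group alone. Each treatment was sampled on days 1, 3, 5 and 7, with 1 library for every treatment and day. There was also 1 day 0 control, labelled as having no treatment. The study's text describes day 0 both as cells in BM and as the state before treatment, so whether these cells had already left bFGF and CHIR99021 is not settled, and differences from day 0 are given with that limit. No treatment and day was repeated. A difference was therefore judged against the scatter among the 16 cultured libraries, 8 with bFGF and 8 without, and not against the spread between cultures. Total expected counts were between 17571973 and 19428744 per library.

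Chemokines are small secreted proteins that bind G protein-coupled receptors and direct the migration of leukocytes and other cells. CC chemokines such as Ccl2 and Ccl7 recruit monocytes through Ccr2, Cxcl1 recruits neutrophils through Cxcr2, Cxcl12 binds Cxcr4 and the scavenging receptor Ackr3, and Cx3cl1 (fractalkine) is made as a membrane-bound protein that can be shed and binds Cx3cr1 of microglia. Il6 and Lif signal through receptors that share Il6st (gp130) and activate STAT3, Csf1 sustains macrophages and microglia through Csf1r, and Il33 is a nuclear alarmin of the interleukin-1 family whose receptor is Il1rl1 (ST2) with Il1rap. In the retina, Ccl2, Il33 and Lif are best known as products of glia under stress.

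On GRCm38.p6, the genes whose positions are not given with their results below lie at chr19:29925113-29960718 (Il33), chr8:94772180-94782427 (Cx3cl1), chr5:90891245-90893121 (Cxcl1), chr5:30013114-30019975 (Il6), chr11:4257568-4272514 (Lif) and chr3:107741048-107760469 (Csf1). RefSeq promoters were available for 7 of the 9 genes, in 8 entries because Il33 has 2 annotated starts; Ccl2 and Ccl7 had none in that table. The 250 bases before the start are shown for the genes on which the treatment results turn (Il33, Cx3cl1 and Cxcl12) and for the 2 with the fewest reads (Cxcl1 and Il6), on the plus strand of GRCm38.p6, 5′ to 3′. Capitals mark matches to 5 motifs searched on both strands: the NF-kB motif GGNNTTTCC, the AP-1 motif TGANTCA, the STAT motif TTCNNNGAA, the TCF/LEF motif ATCAAAG and the CRE motif TGACGTCA. The windows lie at chr19:29924863-29925112 and chr19:29945540-29945789 (Il33), chr8:94771930-94772179 (Cx3cl1), chr6:117168285-117168534 (Cxcl12), chr5:90890995-90891244 (Cxcl1) and chr5:30012864-30013113 (Il6).
Il33, first start: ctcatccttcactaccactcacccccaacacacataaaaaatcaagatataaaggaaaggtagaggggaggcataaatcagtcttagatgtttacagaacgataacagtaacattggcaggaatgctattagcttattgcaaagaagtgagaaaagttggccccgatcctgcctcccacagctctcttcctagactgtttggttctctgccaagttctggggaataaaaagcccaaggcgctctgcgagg
Il33, second start: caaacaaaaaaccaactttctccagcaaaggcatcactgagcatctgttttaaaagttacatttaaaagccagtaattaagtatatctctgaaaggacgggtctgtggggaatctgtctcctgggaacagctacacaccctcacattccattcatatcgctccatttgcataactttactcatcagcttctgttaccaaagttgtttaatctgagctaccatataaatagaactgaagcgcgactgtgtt
Cx3cl1: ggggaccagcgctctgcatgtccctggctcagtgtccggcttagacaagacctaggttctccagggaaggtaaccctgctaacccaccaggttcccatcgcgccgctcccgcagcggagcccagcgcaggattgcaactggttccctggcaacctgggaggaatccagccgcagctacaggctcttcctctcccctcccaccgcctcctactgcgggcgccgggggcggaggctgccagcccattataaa
Cxcl12: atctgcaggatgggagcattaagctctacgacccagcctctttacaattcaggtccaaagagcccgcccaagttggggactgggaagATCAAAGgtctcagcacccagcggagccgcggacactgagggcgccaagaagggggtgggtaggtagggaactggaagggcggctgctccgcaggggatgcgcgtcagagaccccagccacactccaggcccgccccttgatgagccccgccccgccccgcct
Cxcl1: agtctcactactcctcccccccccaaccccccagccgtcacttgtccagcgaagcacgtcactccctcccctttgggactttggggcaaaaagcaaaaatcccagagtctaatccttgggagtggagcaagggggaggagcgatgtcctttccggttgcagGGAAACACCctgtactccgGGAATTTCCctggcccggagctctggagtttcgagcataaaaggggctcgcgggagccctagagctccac
Il6: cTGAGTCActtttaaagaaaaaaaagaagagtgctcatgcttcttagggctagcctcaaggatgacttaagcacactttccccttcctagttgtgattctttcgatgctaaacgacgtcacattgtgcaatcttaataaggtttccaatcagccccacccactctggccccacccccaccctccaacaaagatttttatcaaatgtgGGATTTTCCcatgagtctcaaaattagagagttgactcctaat
Of the 32851 promoters in the table, 4.93% held the NF-kB motif in the same 250 bases, 6.75% the AP-1 motif, 7.02% the STAT motif, 3.21% the TCF/LEF motif and 1.55% the CRE motif. Cxcl1 held 2 NF-kB matches, at 89 and 70 bases before the start, and Il6 held 1 at 43 bases. An AP-1 match stood at 249 bases before the start of Il6. The 7 letters of the TCF/LEF motif stood once in the Cxcl12 window, at 163 bases before the start. Neither Il33 window nor the Cx3cl1 window held any of the 5 motifs. Of the promoters not printed, Csf1 held 1 NF-kB match and Lif 1 AP-1 match. These are matches of letters, and no binding was measured.

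The 9 genes differed widely in level per unit of transcript length. Averaged over the 16 cultured libraries, Ccl2 stood highest at 298 FPKM (reads scaled to transcript length and sequencing depth), followed by Csf1 at 243, Ccl7 at 147, Il33 at 74.7, Cxcl12 at 42.2, Cx3cl1 at 24.2 and Lif at 11.3. Cxcl1 at 0.430 and Il6 at 0.383 stayed below the mean of 1 FPKM required for testing, so 7 of the 9 genes were tested. Neighbours in this order overlapped widely from library to library: Ccl2 ranged from 81.3 to 466 and Csf1 from 190.1 to 315, and only the gap between these 7 genes and the last 2 exceeded the ranges, since no library had Cxcl1 above 0.95 or Il6 above 1.40. The plot of FPKM by day shows Il33 separating by bFGF and Cx3cl1 and Lif diverging from day 5.

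**Figure D1:**
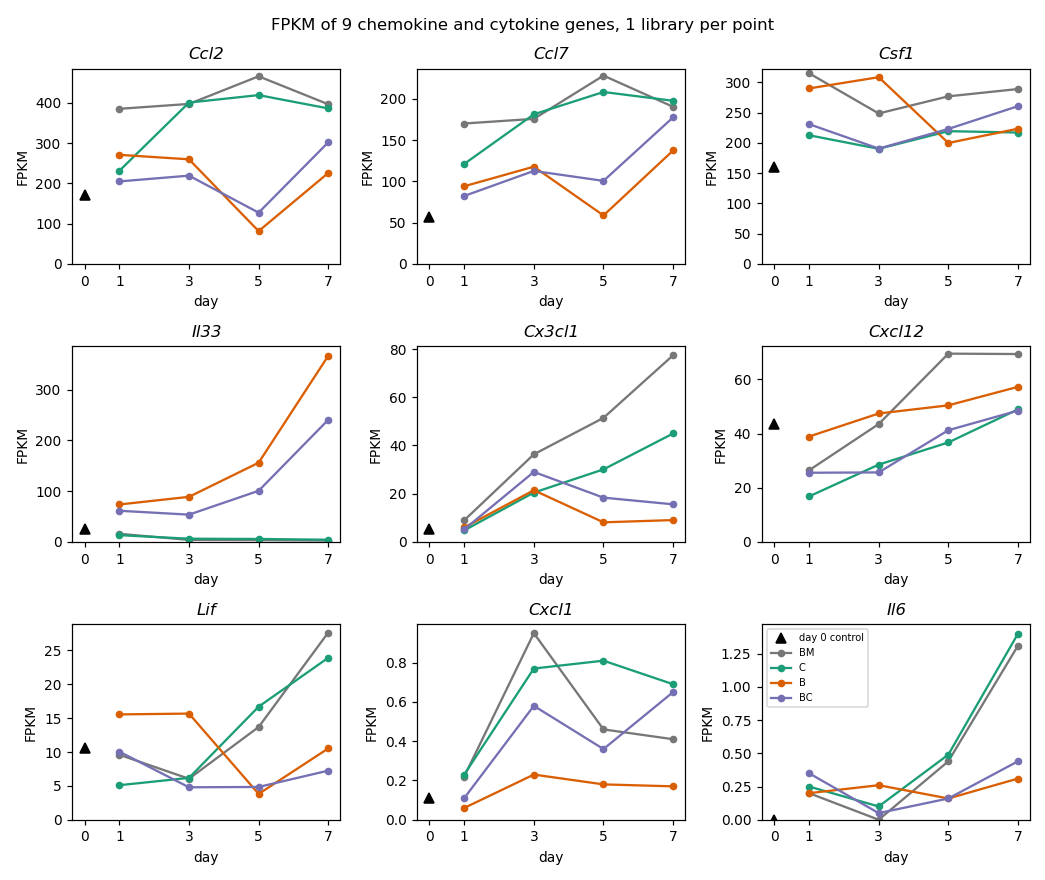
FPKM (linear axes from 0, differing between panels) of the 9 genes against day, with 1 library per point and lines joining the days of BM, C, B and BC; the triangle is the day 0 control. On day 7 Il33 was at 367 (B) and 240.5 (BC) while BM and C stood at 2.50 and 4.08, whereas Cx3cl1 reached 77.4 in BM.

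To ask which genes responded to bFGF over the whole week, the 7 tested genes were fitted with bFGF, CHIR99021 and day as terms in edgeR's quasi-likelihood test. With bFGF, 2 rose (Il33 and Cxcl12), 3 fell (Ccl2, Ccl7 and Cx3cl1) and 2 did not pass the threshold of an adjusted p of 0.05 (Lif and Csf1). In the same fit 34.6% of 11272 genes rose and 33.9% fell, 68.4% in all, so that 5 of 7 is close to the share of all genes. Only 8 of 11272 genes rose more than Il33, a rank that leaves falls out.

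Scaling matters for the smaller of these changes. On the log2(FPKM + 1) scale the median tested gene differed with bFGF by -0.034 (B against BM) and -0.035 (BC against C) on day 1, by -0.11 and -0.078 on day 3, by -0.42 and -0.39 on day 5, and by -0.46 and -0.50 on day 7. The edgeR values are set relative to such a shift by TMM scaling, while the FPKM values are not. Il33, Ccl2 and Cx3cl1 kept the direction of each bFGF effect under all scalings tried, and the members for which a direction turned are named with their results. For single receptors, other listed genes and markers, bFGF effects are given on the TMM scale alone, so small ones may depend on it.

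Il33 was the member with the widest response. In BM its FPKM fell from 15.8 on day 1 to 3.73 on day 3, 3.34 on day 5 and 2.50 on day 7, and in C from 13.1 to 6.09, 5.62 and 4.08. In B it climbed from 73.6 to 88.6, 156 and 367, and in BC it went from 61.2 to 53.6, 101 and 240.5. The day 0 control, at 25.4, lay between these 2 sets of libraries, and the lowest library with bFGF stood above the highest without it.

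The log2 fold change of Il33 with bFGF was 4.60 (SE 0.61, adjusted p = 0.000129, edgeR), higher in 8 of 8 treatment pairs. It grew with time, from 2.30 (SE 0.34, adjusted p = 0.00226) on day 1 to 3.92 on day 3, 5.26 on day 5 and 7.04 (SE 0.43, adjusted p = 2.45e-08) on day 7, and the effect differed between days (adjusted p = 3.31e-05). Both arms contributed: from day 1 to day 7 Il33 fell by 2.14 on the log2 scale without bFGF (SE 0.38, adjusted p = 0.000337) and rose by 2.60 with it (SE 0.33, adjusted p = 1.67e-05). On day 7 only 9 of 11272 genes rose more with bFGF, a rank that leaves falls out.

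With CHIR99021, Il33 was lower on day 1 in both arms, and from day 3 on it was higher without bFGF and lower with it; neither the CHIR99021 effect nor the interaction passed the test. Without bFGF the ratio of C to BM was 0.831 on day 1 and then 1.63, 1.68 and 1.63 on days 3, 5 and 7. With bFGF the ratio of BC to B was 0.831, 0.604, 0.645 and 0.656. The interaction of bFGF and CHIR99021 was -0.89 on the log2 scale (SE 1.0, adjusted p = 1.0, edgeR). The fits of CHIR99021 and of the interaction held a common bFGF effect for all days. Differences of the Il33 effect between days therefore entered their residual, so these results do not show that CHIR99021 left Il33 unchanged.

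Ccl2 and Ccl7 are adjacent genes, at chr11:82035577-82037452 and chr11:82045712-82047525 (GRCm38.p6), and encode monocyte chemoattractants. Ccl2 in BM stood at 385, 397, 466 and 396 FPKM on days 1, 3, 5 and 7, and in C at 231, 400.5, 419 and 386. With bFGF it was 270.7, 259.6, 81.3 and 226 in B and 205, 219, 127 and 302 in BC. The libraries with bFGF were lower than their partners in 8 of 8 pairs, with a trough on day 5, although the 2 sets overlapped because C on day 1 was low. Day 0 stood at 171, below every library without bFGF.

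Ccl7 followed the same course at a lower level. It was 170.2, 176, 228 and 190.5 in BM and 121, 181, 208 and 198 in C. In B it was 94.1, 118, 58.7 and 137.5, and in BC 82.4, 113, 101 and 178, against 57.4 on day 0. All 8 pairs were lower with bFGF, and the lowest cultured library was again B on day 5. Over the 17 libraries Pearson's r between the log2(FPKM + 1) of the 2 genes was 0.88, a description of libraries that share days and treatments.

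Over days 1 to 7 the bFGF effect was -0.64 for Ccl2 (SE 0.22, adjusted p = 0.0191) and -0.49 for Ccl7 (SE 0.17, adjusted p = 0.0220). For Ccl2 the call was lost without the BC library of day 5 and for Ccl7 without day 1 (adjusted p = 0.0625). The effect differed between days for both (adjusted p = 0.00650 for Ccl2 and 0.0159 for Ccl7, edgeR). On day 1 it was -0.29 for Ccl2 (adjusted p = 0.493) and -0.65 for Ccl7 (adjusted p = 0.0827), the latter passing in DESeq2 and with no filter. For Ccl7 on day 3 it was -0.53 (adjusted p = 0.0595), passing in DESeq2, in limma, with no filter and with library totals alone. On day 3 it was -0.64 for Ccl2 (SE 0.25, adjusted p = 0.0491), a call lost without any of the 4 libraries of day 3, B or BC of day 1, BM or C of day 5, or BM or C of day 7. On day 5 it was -1.63 for Ccl2 (SE 0.26, adjusted p = 9.08e-05) and -1.02 for Ccl7 (SE 0.22, adjusted p = 0.00113), whereas on day 7 it was -0.013 (SE 0.25, adjusted p = 0.962) and 0.24 (SE 0.22, adjusted p = 0.315). The day 7 value of Ccl7 turned to -0.30 with library totals alone and to -0.31 in limma on log2(FPKM + 1), and that of Ccl2 became -0.58 (adjusted p = 0.0442) in the latter.

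With bFGF both genes rose from day 1 to day 7, by 1.28 for Ccl7 (SE 0.22, adjusted p = 0.000209) and by 0.60 for Ccl2 (SE 0.25, adjusted p = 0.0447). The Ccl2 rise was 0.16 (adjusted p = 0.547) with library totals alone, and its call was also lost without any of 9 libraries (BC of days 1 and 7, BM and C of days 3, 5 and 7, and B of day 3), with values from 0.27 to 0.90 over all omissions. Without bFGF the changes were 0.39 (SE 0.22, adjusted p = 0.140) for Ccl7 and 0.33 (SE 0.25, adjusted p = 0.269) for Ccl2. The ratio of Ccl2 to Ccl7 FPKM was 2.98 on day 0 and 1.26 to 1.39 in the 2 libraries with bFGF on day 5, while BM and C held it between 1.91 and 2.26 on every day.

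Cx3cl1 rose with time when bFGF was absent. In BM it was 8.92, 36.3, 51.4 and 77.4 FPKM on days 1, 3, 5 and 7, and in C 4.75, 20.4, 30.1 and 45.0. In B it peaked at 21.4 on day 3 between 5.96 on day 1, 8.09 on day 5 and 9.02 on day 7, and in BC it was 5.16, 29.0, 18.3 and 15.6. On day 0 it was 5.43. The treatments overlapped on days 1 and 3 and separated by bFGF on days 5 and 7.

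From day 1 to day 7 Cx3cl1 rose by 3.14 on the log2 scale without bFGF (SE 0.48, adjusted p = 0.000110, edgeR), with 157 of 11272 genes rising more, and by 1.61 with it (SE 0.48, adjusted p = 0.00839). The bFGF effect was -0.77 over the week (SE 0.30, adjusted p = 0.0383), -1.14 on day 5 (SE 0.45, adjusted p = 0.0354) and -1.73 on day 7 (SE 0.45, adjusted p = 0.00380). The weekly call was lost when any of 8 libraries was left out (BM on days 1, 5 and 7, B on days 3, 5 and 7, and BC and C on day 7), with values from -0.95 to -0.55. The day 5 call was lost without BM or B of that day and in DESeq2 (adjusted p = 0.0613), the day 7 call without B of that day, and the rise with bFGF without BC of day 1 or day 7 and in limma on log2(FPKM + 1) (adjusted p = 0.0524). The test between days gave an adjusted p of 0.0801.

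With CHIR99021, Cx3cl1 was lower on day 1 in both arms, and on days 3, 5 and 7 it was lower without bFGF and higher with it. The ratio of C to BM was 0.532, 0.563, 0.584 and 0.581 on the 4 days, and that of BC to B was 0.866, 1.35, 2.27 and 1.73. The interaction was 1.27 on the log2 scale (SE 0.48, adjusted p = 1.0, unadjusted p = 0.0223 in edgeR). Here too the fit held a common bFGF effect for all days. No member passed the interaction test in edgeR, which called 1 of 11272 genes, or 0.00887%; 1 of 7 had an unadjusted p under 0.05, and DESeq2 and limma called 0 members.

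Cxcl12 (chr6:117168535-117181368), which guides progenitor migration in the nervous system, was the one member whose CHIR99021 effect passed the threshold in edgeR. In BM it was 26.4, 43.5, 69.5 and 69.4 FPKM on days 1, 3, 5 and 7, and in C 16.8, 28.5, 36.7 and 48.9. In B it was 38.9, 47.4, 50.4 and 57.3, and in BC 25.5, 25.6, 41.2 and 48.5, with 43.7 on day 0. In each of the 8 pairs the library with CHIR99021 had less Cxcl12, by ratios from 0.528 (C against BM on day 5) to 0.846 (BC against B on day 7).

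The CHIR99021 effect on Cxcl12 was -0.60 (SE 0.11, adjusted p = 0.0391, edgeR), in a comparison that called 0.337% of 11272 genes. It stayed past the threshold only when BM on day 1 or BC on day 7 was the library left out, with values from -0.64 to -0.55 over all 16 omissions, and it missed the threshold with library totals alone (adjusted p = 0.0639) and without day 1 (adjusted p = 0.0593). The other 6 tested members did not pass. Csf1 was nearest, with -0.27 (SE 0.11, adjusted p = 0.435, unadjusted p = 0.0340), being lower in 6 of 8 pairs, and for Lif the value was -0.46 (SE 0.33, adjusted p = 0.752). The plot of CHIR99021 differences shows Cxcl12 below 0 throughout, and Cx3cl1 and Il33 split by bFGF from day 3 on.

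**Figure D2:**
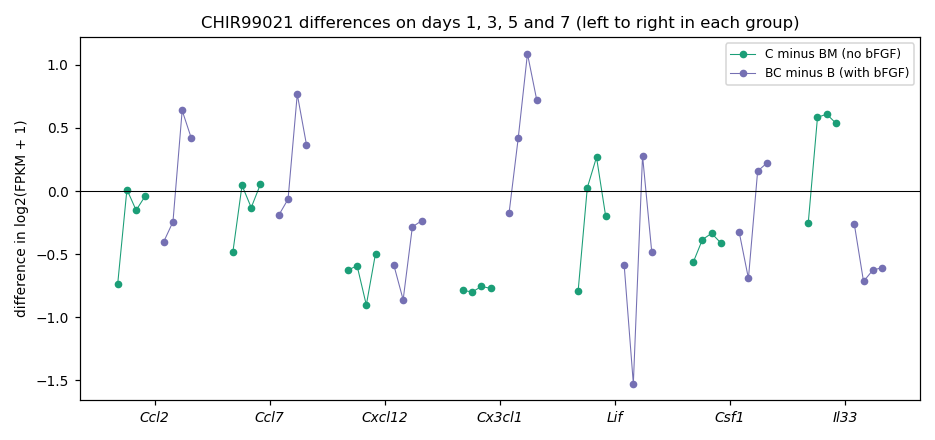
Differences in log2(FPKM + 1) between libraries with and without CHIR99021 on days 1, 3, 5 and 7 for the 7 tested genes, as C minus BM and as BC minus B, with 1 library on each side of a difference and no error bar. All 8 points of Cxcl12 lie below 0, from -0.90 to -0.24.

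With bFGF, Cxcl12 was 0.31 higher over the week on the TMM scale (SE 0.11, adjusted p = 0.0190), and 0.71 higher on day 1 (SE 0.15, adjusted p = 0.0143). The weekly value depended on scaling, at 0.022 (adjusted p = 0.880) with library totals alone, and the day 3, 5 and 7 values turned negative there and in limma. Without day 1 it was 0.18 (adjusted p = 0.158), and the day 1 call was lost without any of the 4 libraries of that day. From day 1 to day 7 Cxcl12 rose in both arms, by 1.33 without bFGF (SE 0.15, adjusted p = 1.14e-05) and by 0.94 with it (SE 0.15, adjusted p = 0.000105).

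Cxcl1 was near the limit of counting. Its expected counts were 4 in both BM and C on day 1, 16 and 13 on day 3, 8 and 14 on day 5, and 7 and 12 on day 7. In B they were 1, 4, 3 and 3, in BC 2, 10, 6 and 11, and on day 0 there were 2. Lower values with bFGF in 8 of 8 pairs rested on these few reads; the largest count, 16, has a 95% exact Poisson interval from 9.15 to 26.0, which covers counting error only. When no filter was applied, the bFGF effect was -0.72 (SE 0.32, adjusted p = 0.0813, edgeR).

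Il6 was likewise listed at 29 reads at most. No read was listed on day 0 or in BM on day 3, which allows up to 3 counts, or about 0.147 FPKM. In BM the counts were 4, 0, 9 and 27 and in C 5, 2, 10 and 29 on days 1, 3, 5 and 7. With bFGF they were 4, 5, 3 and 6 in B and 7, 1, 3 and 9 in BC. The intervals on day 7 were 17.8 to 39.3 for BM, 19.4 to 41.6 for C, 2.20 to 13.1 for B and 4.12 to 17.1 for BC, so the libraries without bFGF stood above those with it by more than counting error. When no filter was applied, Il6 rose by 2.52 from day 1 to day 7 without bFGF (SE 0.63, adjusted p = 0.00294, edgeR), and the bFGF effect on day 7 was -1.32 (SE 0.58, adjusted p = 0.0649).

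Lif, a cytokine that supports photoreceptor survival, had positive estimates of the bFGF effect on days 1 and 3 and negative ones on days 5 and 7. Only the negative estimates passed the threshold. BM gave 9.59, 6.05, 13.7 and 27.6 FPKM on days 1, 3, 5 and 7 and C gave 5.10, 6.18, 16.7 and 23.9. B gave 15.6, 15.7, 3.81 and 10.5, and BC gave 10.1, 4.79, 4.84 and 7.25, with 10.6 on day 0. The bFGF effect was 0.90 on day 1 (SE 0.37, adjusted p = 0.145), 0.78 on day 3 (SE 0.38, adjusted p = 0.107), -1.29 on day 5 (SE 0.38, adjusted p = 0.00812) and -0.89 on day 7 (SE 0.36, adjusted p = 0.0391), and it differed between days (adjusted p = 0.00400, edgeR).

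The day 5 call of Lif was lost without B or C of that day and the day 7 call without any of the 4 libraries of day 7 and in DESeq2 (adjusted p = 0.0775). Averaged over the week the effect was -0.13 (SE 0.34, adjusted p = 0.742). Without bFGF Lif rose by 1.84 from day 1 to day 7 (SE 0.37, adjusted p = 0.000972), whereas with bFGF the change was 0.051 (SE 0.37, adjusted p = 0.907), a value that turned to -0.38 with library totals alone. On day 3 the libraries with bFGF differed widely, 15.7 in B against 4.79 in BC.

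Csf1, abundant in every library, was the steadiest member. It was 315, 249, 277 and 289 FPKM in BM, 213, 190.1, 219 and 217 in C, 289.9, 309, 199.8 and 223 in B, and 231, 190.5, 223 and 261 in BC. The day 0 control, at 159.9, was lower than all 16 cultured libraries. The bFGF effect was 0.086 (SE 0.11, adjusted p = 0.509, edgeR) and turned to -0.20 (adjusted p = 0.135) with library totals alone. Both values rest on counts with no correction for transcript length, and the length of Csf1 differed with bFGF (below). In limma on log2(FPKM + 1), where FPKM is scaled to length, the effect was -0.030 (adjusted p = 0.806). The part of length in these differences was not tested. No Csf1 comparison passed in edgeR, including the test between days (adjusted p = 0.895), although with library totals alone the day 5 effect was -0.46 (adjusted p = 0.0386).

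By day, the bFGF effect passed for 2 of the 7 tested members on day 1, 2 on day 3, 5 on day 5 and 3 on day 7, against 10.7%, 50.4%, 75.8% and 78.4% of all 11272 genes. The effect differed between days for 4 of 7 members, against 76.3% of all genes. From day 1 to day 7 without bFGF 3 members rose and 1 fell, where 32.3% of all genes rose and 31.5% fell, and with bFGF 5 rose and none fell, where 35.8% rose and 39.5% fell. With so few genes, nothing particular to the members was read from these counts.

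**Figure D3:**
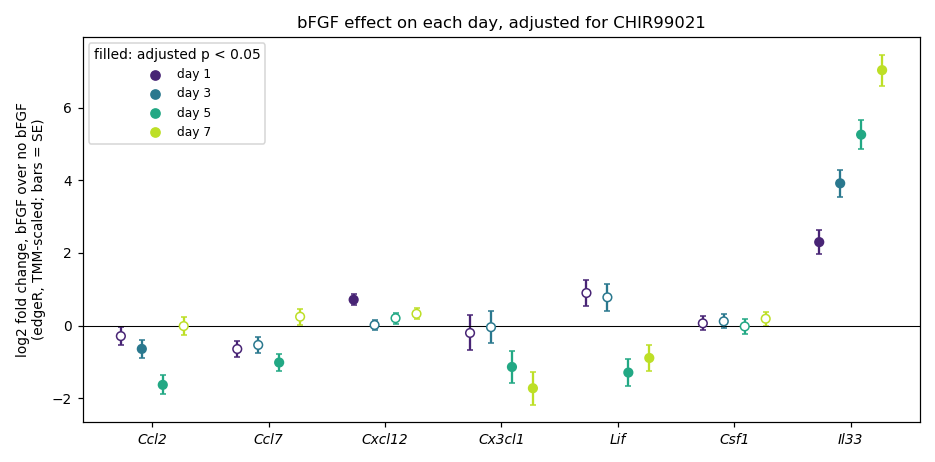
Log2 fold change of each tested gene with bFGF over no bFGF on days 1, 3, 5 and 7 (edgeR, TMM-scaled, adjusted for CHIR99021), with bars of 1 SE that hold departures from additivity and no spread between cultures; filled points passed an adjusted p of 0.05. Il33 climbs from 2.30 to 7.04, Lif goes from 0.90 to -0.89, and Csf1 stays near 0.

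Against the day 0 control, which has no partner library and so no test, members were counted where log2(FPKM + 1) differed by at least 1. In BM on day 1, 2 of 7 passed this size (Ccl2 by 1.17 and Ccl7 by 1.55), against 8.93% of 11258 genes. In B on day 1 it was Il33 alone, by 1.50, against 4.33%. By day 7 it was 5 in BM, against 34.1%: Cx3cl1 by 3.61, Ccl7 by 1.71, Lif by 1.31, Ccl2 by 1.21 and Il33 by -2.92. In B on day 7 it was Il33, by 3.80, and Ccl7, by 1.25, against 35.1%. On day 7 Il33 therefore lay below day 0 in BM and above it in B.

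Many receptors of these ligands were at very low levels in the same cultures. Of 18 receptors and co-receptors in the files, 10 stayed below 1 FPKM in all 17 libraries, among them Ccr2, the receptor of Ccl2 and Ccl7, at 0.15 at most, Cxcr4 at 0.13 at most and Csf1r at 0.38 at most. Ackr3 reached 1.10. Cxcr2 was low but present, at 1.07 to 2.45 on days 1 to 7. Cx3cr1 was between 0.02 and 0.10 without bFGF and reached 2.25 in BC on day 7.

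The gp130 and ST2 receptors were expressed. Il6st, the shared chain of Il6 and Lif, was 82.5 to 162 FPKM without bFGF and 29.2 to 78.0 with it, and its sets did not overlap. Il6ra spanned 1.97 to 16.4, Lifr 2.05 to 8.25 and Il1rl1 2.54 to 17.7 over the 16 libraries, while Il1rl1 stood at 28.9 on day 0. Il1rap was 8.86 to 16.3.

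Of the 6 receptor genes tested, 2 rose with bFGF and 3 fell, where 34.6% of all genes rose and 33.9% fell, with a median log2 fold change of -0.10 beside -0.0023 over all genes. Il6st fell by 0.79 (SE 0.14, adjusted p = 0.000479), Il6ra by 0.67 (SE 0.18, adjusted p = 0.00592) and Lifr by 0.37 (SE 0.16, adjusted p = 0.0492). The Lifr value was -1.03 on day 1 (adjusted p = 0.0130) and 0.049 on day 7 (adjusted p = 0.833, edgeR). Cxcr2 rose by 0.85 (SE 0.21, adjusted p = 0.00328) and Il1rap by 0.35 (SE 0.088, adjusted p = 0.00386). The Il1rap value was 0.60 on day 1 (adjusted p = 0.0176) and 0.17 on day 7 (adjusted p = 0.258, edgeR). On day 7 its FPKM was lower with bFGF, at 9.52 in B against 10.9 in BM and 8.89 in BC against 10.05 in C. For Il1rl1 the value was 0.16 over the week (SE 0.17, adjusted p = 0.402, edgeR). On day 7 the Il1rl1 value was 0.82 (SE 0.24, adjusted p = 0.00748, edgeR), in a comparison that called 78.4% of all genes.

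**Figure D4:**
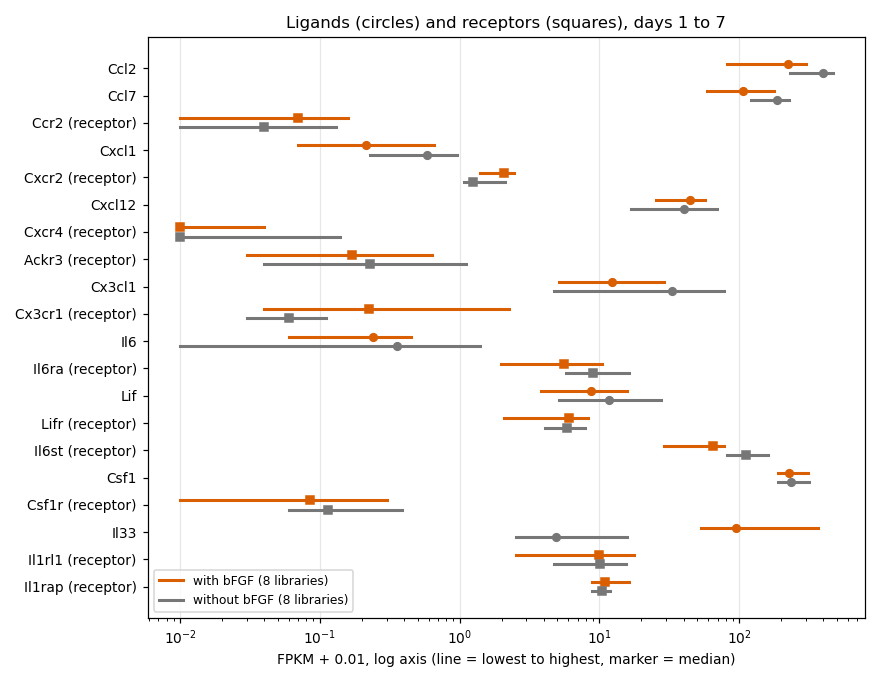
Lowest to highest FPKM (lines) and median (circles for ligands, squares for receptors) over the 8 libraries with bFGF and the 8 without, on a log axis of FPKM + 0.01. Ccr2, Cxcr4 and Csf1r lie below 1 FPKM beside ligands at 16.8 to 466, whereas Il6st, Il1rl1 and Il1rap lie above 2.

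Other chemokines and cytokines were read from lists chosen by family, again beside 34.6% of all genes rising and 33.9% falling with bFGF. Of 7 other chemokines tested, 3 rose with bFGF (Ccl5 by 1.26, Cxcl2 by 0.82 and Cxcl10 by 0.36 on the log2 scale) and 1 fell (Ccl27a, -0.83), with a median of 0.36. Ccl5, a T cell chemoattractant, was at 295 to 1021 FPKM with bFGF and 171 to 515 without. Of 15 other cytokines tested 8 rose and 4 fell, with a median of 0.64: Il34, the second ligand of Csf1r, rose by 2.40 (SE 0.31, adjusted p = 0.000103), and the gp130 cytokine Clcf1 rose by 1.43 (SE 0.19, adjusted p = 0.000135). Mif rose by 1.69 (SE 0.31, adjusted p = 0.000673). Cntf fell by 2.69 (SE 0.17, adjusted p = 1.79e-06) and Ctf1 by 1.52 (SE 0.29, adjusted p = 0.000819), both gp130 cytokines. Tnfsf10, an apoptosis-inducing ligand, fell by 1.32 (SE 0.36, adjusted p = 0.00613).

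Genes of the pathways upstream and downstream moved both ways, as did all genes, of which 68.4% passed in the same fit; nothing particular to a list was read from its counts. Of 26 tested genes of the NF-kB pathway and its targets, 8 rose and 11 fell with bFGF (median -0.086): Ptgs2, a prostaglandin synthase, rose by 1.90 (SE 0.20, adjusted p = 3.77e-05), Nfkbib by 0.71 and Tnfaip3 by 0.62, and the receptors Tlr2 and Tlr3 fell by 2.33 and 1.89 and Birc3 by 1.41. Of 15 tested genes of the STAT3 pathway and its targets, 7 rose and 6 fell (median 0.14). The kinases Pim1 and Pim3 rose by 2.04 and 1.50 and Cebpb by 0.87, whereas Osmr fell by 2.26 and Socs3 by 0.78. Of 8 tested genes of ligand shedding and cleavage, 2 rose (Timp1 by 1.42 and Mmp9 by 1.22) and 3 fell. The 3 were Timp3, which fell by 1.49, Mmp14, by 0.46, and Adam10, which can shed Cx3cl1, by 0.27 (SE 0.084, adjusted p = 0.0123). For CHIR99021, none of the 77 tested genes in these 6 lists passed in edgeR, where 14 had an unadjusted p under 0.05; DESeq2 called 3 and limma on log2(FPKM + 1) called 1.

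Markers bearing on the source of these transcripts were read in the same way. Of 10 retinal progenitor markers, Six6 and Rax were among those that stayed below 1 FPKM in all 17 libraries, while Pax6, Six3, Sox2 and Nes were present, so only part of the markers of the labelled cell type was detected. Of 6 tested, Ccnd1, a cyclin, rose with bFGF (1.67) and 4 fell, among them Pax6 (-1.94), Hes1 (-0.89) and Six3 (-0.50). With CHIR99021, 1 of the 6 passed, where 0.337% of all genes did. It was Nes, at -0.76 (SE 0.12, adjusted p = 0.0324, edgeR). Of 15 microglia and macrophage markers 10 stayed below 1 FPKM, Aif1, Ptprc, Itgam, Tyrobp and P2ry12 among them. The summed level of that list was 4.73 to 82.9 FPKM with bFGF and 3.75 to 9.19 without; Cd68, a lysosomal protein, rose with bFGF by 3.27 (SE 0.56, adjusted p = 0.000479), and without Cd68 the sums were 0.620 to 3.93 and 2.26 to 5.76.

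Markers of mesenchymal cells and pericytes, of which 3 of 10 stayed below 1 FPKM, moved with bFGF. Their sums were 311 to 888 FPKM without bFGF and 71.8 to 179 with it, and all 6 tested fell, with a median of -2.16, led by Acta2 (-4.69, SE 0.66, adjusted p = 0.000171), Col1a1 (-3.59) and Pdgfrb (-2.27). Endothelial markers summed to 1.42 FPKM at most and those of retinal pigment epithelium to 2.03 at most. Of 8 markers of Müller glia and astrocytes 6 stayed below 1 FPKM, and Glul, which rose with bFGF by 0.70, supplied nearly all of sums between 13.0 and 32.9. In bulk libraries, fewer cells of a type and less RNA per cell cannot be told apart, and the part of the mesenchymal markers in the falls of Ccl2, Ccl7 and Cx3cl1 was not tested.

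The files also give a length for each gene, which differed between libraries for many genes. It was read from its values as the transcript length weighted by the estimated abundance of each transcript; the sources used here do not define it, and the results on length rest on that reading. Among the 7 members that passed the filter on FPKM, the length of 3 (Csf1, Lif and Cxcl12) varied enough to test. For Csf1, whose 3 transcripts are 4176, 3058 and 2097 bases long in GENCODE M21 and which encodes secreted and membrane-bound forms, the length in BM was 3880, 3868, 3971 and 3996 bases on days 1, 3, 5 and 7 and in C 3805, 3851, 3967 and 3956. In B it was 3808, 3351, 3203 and 3208, and in BC 3827, 3644, 3410.3 and 3155, with 3980.2 on day 0. From day 3 on the libraries with bFGF were all shorter than those without, though the FPKM of Csf1 overlapped between the sets.

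In limma on the log2 length, the bFGF effect on Csf1 was -0.18 (SE 0.039, adjusted p = 0.0157), a ratio of 0.880, in a comparison that called 14.8% of 6967 genes. Lif was longer with bFGF, by 0.061 (SE 0.015, adjusted p = 0.0251), reaching 4577 bases in B on day 7 against 4159 in BM. Of its 5 transcripts, GENCODE M21 lengths were found for 2, at 4026 and 3798 bases, both shorter than these values. For Ccl7, with 1 transcript, the deposited length was 912 bases against 801 in GENCODE M21. Deposited and GENCODE M21 lengths thus differ for some genes, and the reading as a weighted mean could not be checked for Lif. For Cxcl12 the value was -0.049 (SE 0.019, adjusted p = 0.107); its length went from 2654 bases on day 0 to between 2059 and 2257 from day 3 on. CHIR99021 changed no length past the threshold in limma, 0% of 6967 genes, of which 209 had an unadjusted p under 0.05. Which transcript contributed was not read from these lengths, since a mean over 3 or more transcripts can arise from several mixtures.

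**Figure D5:**
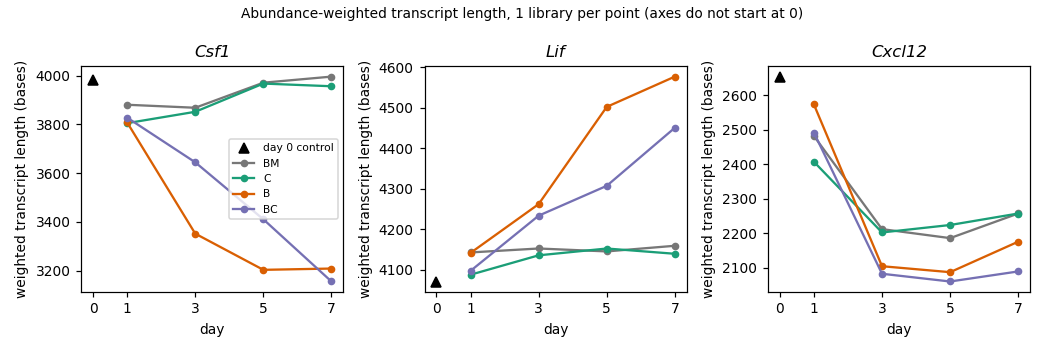
Length in bases, read as an abundance-weighted transcript length, of Csf1, Lif and Cxcl12 against day, with 1 library per point and lines joining the days of each treatment; the axes do not start at 0. Csf1 shortens with bFGF from day 3, to 3155 bases in BC on day 7 against 3996 in BM.

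The genes with the most similar course were taken from 10106 genes by Pearson's r of log2(FPKM + 1) over the 17 libraries, which share days and treatments. For Il33 these were Nrcam (r = 0.99), Plk3 (0.99) and Lrrfip2 (0.97), for Cx3cl1 Medag, Tmem176a and Ldlrad4 (0.95 each), and for Ccl2 Cdk5 (0.94), Sdhaf4 (0.93) and Vma21 (0.91). Ccl7 was most like Zc3h12a (0.91), Atg10 (0.90) and Ntpcr (0.88), and Cxcl12 most like Nkain1 (0.88), Fez2 (0.82) and Nptx1 (0.82). Lif was most like Egr1 (0.83), Plau (0.82) and P2ry2 (0.78). Csf1 had the weakest likeness, with Commd7 (0.74), Zfp219 (0.71) and Tnfaip2 (0.68). Among the members themselves r was 0.88 for Ccl2 and Ccl7, 0.71 for Ccl7 and Cx3cl1, and -0.69 for Ccl2 and Il33.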

How the data were processed

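Poly-A RNA of 17 cultures was sequenced on the BGISEQ-500 platform. The authors mapped the reads with Bowtie 2; the paper names eXpress for quantification, whereas the submitters' processing notes name Bowtie2 and RSEM with build mm10, and versions are not given in the sources used here. The authors deposited, per gene and library, an expected count (estimated reads, 152 of the 153 member values being whole), an FPKM value and a length in bases, read here as a transcript length, with genes from FPKM 0.01 upward. The genes were chosen, and the lists compiled, with earlier results of these data known. Gene positions and promoters came from RefSeq on GRCm38.p6 and transcript lengths from GENCODE M21; mm10 is the same assembly as GRCm38.

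Groups came from the sample titles, with 1 library per treatment and day. Total expected counts were 17571973 to 19428744 (median 18274989), and counting error is large only for Cxcl1 and Il6. Expected counts were rounded and tested with edgeR 4.0.16 (R 4.3.3), TMM scaling, quasi-likelihood F tests and Benjamini-Hochberg adjustment at 0.05 across the 11272 genes whose FPKM averaged 1 or more over the 16 cultured libraries. The additive model held bFGF, CHIR99021 and day. An interaction term was added to it, and another model held a bFGF effect for each day plus CHIR99021. In the additive and interaction models, differences of the bFGF effect between days went into the residual. SE was the absolute log2 fold change over the square root of F. No term for transcript length entered the count fits. Residuals hold departures from additivity and not the spread between cultures, so p-values measure that scatter alone (biological coefficient of variation 24.7% in the additive and 10.0% in the per-day model). Scripts were tested on simulated data.

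Differences from day 0 used log2(FPKM + 1) with no test. Transcript lengths were tested with limma 3.58.1 on genes averaging 1 FPKM or more whose log2 length varied by at least 0.01, an analysis added after the data were seen, as was the microglia sum without Cd68. Besides the 9 genes, the text names the 3 genes most alike each member (mean FPKM of at least 1, highest of at least 5), the main receptors, and up to 3 genes at each end of the bFGF effect in a list; marker genes under 1 FPKM were named after their values were seen. Alternatives were DESeq2 1.42.0, limma on log2(FPKM + 1) and log2(FPKM + 0.1), no filter, a mean FPKM of at least 5, library totals without TMM, RLE factors, omission of day 1 and omission of each of 16 libraries. Figures were drawn with matplotlib 3.10.9.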

Additional observations from a re-analysis of the deposited data

Results flagged for a closer look

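The effect of bFGF differed between days 1, 3, 5 and 7 for 4 of the 7 tested genes, by the test of the difference itself in edgeR. The adjusted p was 3.31e-05 for Il33, whose effect went from 2.30 on day 1 to 7.04 on day 7 on the log2 scale. For Lif it was 0.00400, with effects of 0.90 on day 1, which did not pass the threshold by itself, and -1.29 on day 5. For Ccl2 it was 0.00650 and for Ccl7 0.0159, both with their lowest effect on day 5, at -1.63 and -1.02. The same test called 76.3% of 11272 genes. With 1 library per treatment and day, no sample could be compared with others of its own group.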

How the results depend on the processing

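No library has a replicate, so precision rests on 16 libraries read as 1 design, and counts limit Cxcl1 and Il6. Il33 kept its direction and its call for bFGF, over the week and on each day, under every alternative. Of 406 values of single members under other tools, filters and scalings, 349 kept direction and side of the threshold, 16 lost the call, 11 gained it and 30 changed sign. Of 896 values with 1 library omitted, 797 kept both, 57 lost the call, 15 gained it and 27 changed sign. The cause of a change was not tested.

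Without day 1, bFGF called 3 members, CHIR99021 called 24 genes and 0 members, the interaction called 2 genes, and the CHIR99021 effect became 0.090 for Ccl2 and 0.010 for Il33. CHIR99021 called 281 genes in DESeq2 and 22 genes with no filter, and with library totals alone it called 0 members. The interaction called 5 genes in DESeq2 and 0 genes in limma with either pseudocount and with library totals alone. In limma on log2(FPKM + 1), 3 members changed from day 1 to day 7 with bFGF. Against day 0, a pseudocount of 0.1 gave 1700 genes for BM on day 1 and 1002 genes for B on day 1.

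Sign changes under limma on log2(FPKM + 1), limma on log2(FPKM + 0.1) and library totals, in that order, were as follows. The bFGF effect on Csf1 became -0.030, -0.030 and -0.20 over the week and -0.054, -0.054 and -0.36 on day 7, and on day 1 it became -3.96e-05 in the first and -0.018 with library totals. For Cxcl12 it became -0.013, -0.014 and -0.080 on day 3, -0.15, -0.15 and -0.24 on day 5 and -0.14, -0.15 and -0.22 on day 7. For Ccl7 on day 7 it became -0.31, -0.31 and -0.30. From day 1 to day 7 with bFGF, Lif became -0.47, -0.51 and -0.38, and -0.026 with no filter and -0.027 with the filter at an average FPKM of 5, and Csf1 became -0.10, -0.10 and -0.34.

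With 1 library left out, CHIR99021 called 1 to 28 genes and 0 to 1 members, the interaction 0 to 1 genes, bFGF on day 1 145 genes (without BC of that day) to 1778 genes, and members numbered 1 to 3 on day 1, 1 to 3 on day 3, 3 to 5 on day 5 and 3 to 5 for day 7 over day 1 with bFGF. The bFGF effect over the week ranged from -0.40 to 0.049 for Lif. CHIR99021 effects ranged from -0.20 to 0.056 for Ccl2, -0.084 to 0.12 for Ccl7, -0.36 to 0.0084 for Cx3cl1 and -0.39 to 0.18 for Il33. On day 1 bFGF effects ranged from -0.66 to 0.11 for Ccl2, -0.14 to 0.23 for Csf1 and -0.60 to 0.25 for Cx3cl1. On day 3 they ranged from -0.17 to 0.19 for Cxcl12, -0.11 to 1.38 for Lif, -0.072 to 0.29 for Csf1 and -0.40 to 0.38 for Cx3cl1. Csf1 ranged from -0.32 to 0.24 on day 5 and -0.14 to 0.48 on day 7, and Ccl2 from -0.35 to 0.28 on day 7. Changes from day 1 to day 7 ranged, without bFGF, from -0.054 to 0.71 for Ccl2 and -0.24 to 0.13 for Csf1 and, with it, from -0.090 to 0.16 for Lif and -0.23 to 0.38 for Csf1. No analysis paired by replicate was possible because each group has 1 sample and so no replicate numbers to share. Libraries of the same day were compared through the day term of the fit and described as matched pairs.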
